A study of Mus musculus with 20 samples.

Results

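Heat shock proteins are the chaperones that keep other proteins folded, and 10 of their genes were followed here through 5 tissues of Nsun6 knockout (KO) and wild type (WT) mice: Hspb1, Hspb8, Cryab, Hspa1a, Hspa1b, Hspa8, Dnajb1, Hsph1, Hsp90aa1 and Hspd1. They were taken by symbol from the gene count table, 10 of its 55401 genes, because Hspb1 had stood out in KO liver, and the question was whether the other chaperones moved with it in each library and tissue. The liver comparison of KO with WT chose the genes, so its values are given below as a description, with no test.

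Nsun6 encodes an RNA methyltransferase that places 5-methylcytosine on RNA, and the KO mice carried a CRISPR/Cas9 deletion of exons 3 and 4 made in fertilized eggs of the C57BL/6J strain. RNA was sequenced from 5 tissues, heart, kidney, spleen, liver and small intestine, of female mice aged 8 weeks, with no treatment in either genotype, and with 2 KO and 2 WT libraries per tissue, 20 in all. The study calls the 2 libraries of a group biological replicates, numbered 1 and 2 in the labels, which do not tie any library to an animal.

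Small heat shock proteins (Hspb1, also called Hsp27 or Hsp25, Hspb8 and Cryab, the alpha B-crystallin) hold unfolding proteins without using ATP and are abundant in muscle, where they guard the contractile fibres. Hsp70 proteins (the stress-induced Hspa1a and Hspa1b and the constitutive Hspa8) refold proteins in cycles of ATP use, with the J-domain protein Dnajb1 delivering clients and Hsph1, an Hsp110, exchanging the nucleotide. Hsp90aa1 is the inducible Hsp90 of the cytosol, Hspd1 (Hsp60) is the folding chamber of the mitochondrion, and heat shock factor 1 switches many of these genes on by binding repeated GAA units, the heat shock elements, in their promoters.

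Those units could be read in the promoters of 7 of the 10 genes, which had an entry in the RefSeq promoter table used here (build GRCm38.p6). The letters GAANNTTC or TTCNNGAA, which read the same on both strands, occurred in the 250 bases before the start of 12.8% of 32851 promoters. The 7 genes had 10 promoter entries, of which 6 held the letters, and these belonged to 5 genes, Hspb1, Hspa1a, Hspa1b, Hsph1 and Hspd1. The 6 are not independent of each other. Both entries of Hsph1 hold the same match in the genome, and the promoters of Hspa1a and Hspa1b are nearly identical. The 3 promoters below lie between annotated genes and are shown because Hspb1, Hspb8 and Hspa1a behave differently in the results, each as 250 bases from 5′ to 3′ ending just before the start of transcription, with matches in capitals.
Hspb1 (ENSMUSG00000004951, chr5:135887669-135887918, plus strand): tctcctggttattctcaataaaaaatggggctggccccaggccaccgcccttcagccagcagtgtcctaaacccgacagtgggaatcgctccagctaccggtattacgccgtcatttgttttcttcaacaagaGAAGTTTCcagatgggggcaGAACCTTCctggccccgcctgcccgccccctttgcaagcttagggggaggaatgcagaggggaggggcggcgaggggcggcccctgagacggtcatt
Hspb8 (ENSMUSG00000041548, chr5:116422865-116423114, minus strand): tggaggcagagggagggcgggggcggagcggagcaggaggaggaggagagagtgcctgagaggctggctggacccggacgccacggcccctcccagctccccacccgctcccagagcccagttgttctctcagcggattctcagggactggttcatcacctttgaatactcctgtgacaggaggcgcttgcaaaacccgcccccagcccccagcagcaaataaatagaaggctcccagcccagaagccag
Hspa1a (ENSMUSG00000091971, chr17:34972157-34972406, minus strand): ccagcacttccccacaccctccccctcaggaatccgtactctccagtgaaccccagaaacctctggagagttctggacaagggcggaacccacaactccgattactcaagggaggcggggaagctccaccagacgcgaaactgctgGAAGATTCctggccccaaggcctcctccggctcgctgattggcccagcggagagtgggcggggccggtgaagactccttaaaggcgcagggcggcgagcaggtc

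Hspb1 held 2 matches, at 117 to 110 and 97 to 90 bases before the start, and Hspb8 held none in this window. Hspa1a held 1 match at 104 to 97 bases. The promoter of Hspa1b, its neighbour on chromosome 17 (34959239 to 34959488, minus strand), carried the same match at the same distance and differed from that of Hspa1a by C44T, T47C and T249G, counted from the first base shown. The longer form with 3 units is made by joining GAANNTTC and TTCNNGAA so that they share the middle unit. It was present on either strand in 0.466% of promoters and in 1 of these 10 entries, an entry of Hspd1. There 2 overlapping matches, at 144 to 132 and 139 to 127 bases before 1 of its starts, make up the capitals of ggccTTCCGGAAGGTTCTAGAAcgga. That stretch lies within an annotated exon of Hspd1. A match of letters is a description and not a bound site.

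Reads of Hspa1a and Hspa1b cannot be assigned with certainty. Their annotated transcripts were 99.3% identical over 2197 aligned bases, and 40.5% of the 150-base windows of Hspa1b occurred unchanged in Hspa1a. Values of these genes below are those of the deposited counts. The methods state no option for reads that fit more than 1 place. Such reads may have been left out of both counts, which would make both too low, or split between the copies. The gene bodies lie on chromosomes 5 (Hspb1 135887919 to 135889563, plus strand; Hspb8 116408491 to 116422864 and Hsph1 149614287 to 149636376, minus strand), 17 (Hspa1b 34956436 to 34959238 and Hspa1a 34969190 to 34972156, minus strand) and 9 (Hspa8 40800984 to 40810087 and Cryab 50751325 to 50756636, plus strand), and on 8 (Dnajb1 83608193 to 83612653, plus strand), 12 (Hsp90aa1 110690605 to 110702728, minus strand) and 1 (Hspd1 55077835 to 55088243, minus strand), all in GRCm38, and each count covers the annotated exons of the gene.

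The libraries held between 15897446 and 44508197 counts assigned to genes, with a median of 28513950. Values per library are CPM, the count relative to the size of the library after one scaling over the 20 libraries, whereas fold changes come from fits within a tissue. Tissue markers followed the labels: all 4 heart, all 4 spleen and all 4 kidney markers were higher in every library of their tissue than in any other library, as were 3 of 4 in the liver and in the small intestine.

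Nsun6 itself was no test of the deletion, since its count covers all exons and not the deleted ones alone. It stood at 9.82 and 6.19 CPM in WT and 9.68 and 5.24 CPM in KO small intestine, at 7.23 and 4.83 against 4.03 and 4.56 CPM in liver, and at 6.07 and 4.36 against 4.02 and 6.64 CPM in spleen. In kidney it stood at 5.44 and 5.83 CPM in WT and 3.91 and 3.32 CPM in KO, and in heart at 7.02 and 6.65 against 5.995 and 5.497 CPM. KO was below WT without overlap in liver, kidney and heart and overlapped it in the other tissues, and the groups are those of the labels.

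Several libraries stood apart from their replicate. The summed level of 10 hepatocyte markers in spleen was 3575 CPM in WT replicate 2 against 10.6 in WT replicate 1, 132 in KO replicate 1 and 187 in KO replicate 2, with albumin at the top and no marker at 0. In WT liver the same markers summed to 199300 CPM in replicate 1 and 388000 in replicate 2, and to 341900 and 335300 CPM in KO. Kidney WT replicate 1 had the lowest sum of 8 tubule markers, at 26910 CPM against 37550 to 45900 CPM in the other kidney libraries. Both heart libraries of replicate 2 carried the added tag "pre" in their column names and were deeper than those of replicate 1. A tissue is a mixture, and fewer cells of a type cannot be told apart from less RNA per cell in any value below.

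In WT tissues the small heat shock proteins were highest in heart. Per kilobase of exon, Cryab stood at 1432 and 895 CPM in heart, 27.8 and 103 in kidney, 8.61 and 7.38 in spleen, 2.48 and 3.54 in small intestine and 2.70 and 2.58 in liver. Heart was the highest tissue for Cryab, and its mean was 441 times that of liver, the lowest. Neighbours in this order did not overlap down to small intestine and liver, which did.

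Hspb8 stood, per kilobase, at 293 and 291 CPM in heart and 131 and 114 CPM in liver. In small intestine it was at 2.79 and 2.93, in spleen at 1.51 and 2.49 and in kidney at 1.46 and 2.35 CPM. Heart and liver thus stood apart from the other tissues, and heart from liver, with a log2 difference, liver minus heart, of -1.24 ± 0.364 (SE) that passed the test (edgeR quasi-likelihood test, adjusted p = 0.0316). Spleen and kidney overlapped. Hspb8 in liver exceeded the mean of the other tissues by 4.04 ± 0.245 on the log2 scale (adjusted p = 2.09e-05). Cryab was lower in liver than that mean, with a log2 difference of -3.79 ± 0.604 (adjusted p = 0.00188).

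Hspb1 stood, per kilobase, at 167 and 77.2 CPM in heart, 24.6 and 32.3 in spleen and 8.30 and 12.1 in kidney. In small intestine it was at 3.44 and 5.54 CPM and in liver at 3.60 and 4.53 CPM. The order was heart, spleen, kidney and then small intestine and liver, with an overlap only between the last pair, and the heart mean was 30.1 times the liver mean. Spleen exceeded kidney by 1.42 ± 0.444 on the log2 scale (adjusted p = 0.0369), and the log2 difference of spleen minus heart was -2.12 ± 0.452 (adjusted p = 0.00757). The WT liver libraries are also the controls of the comparison that chose Hspb1, so its log2 difference between liver and the other tissues, -2.29 ± 0.411, is given with no test, and in the KO libraries it was 0.028 ± 0.308.

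**Figure D1:**
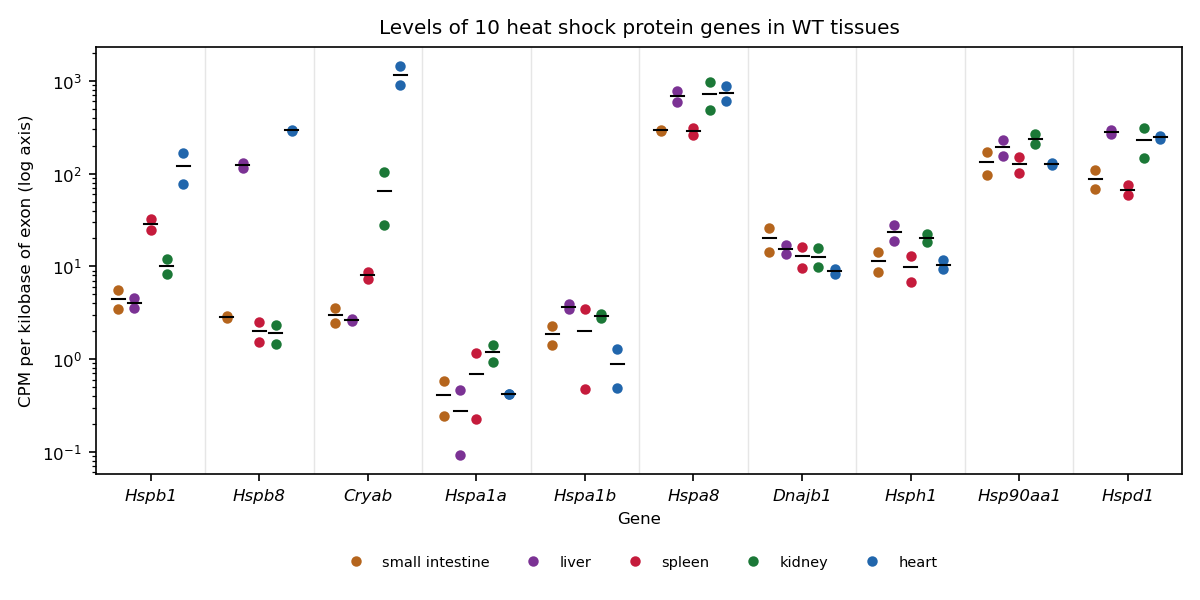
CPM per kilobase of exon (log axis) of the 10 genes in the 10 WT libraries, 2 points per tissue, with a bar at their mean. Cryab, Hspb8 and Hspb1 span 441, 153 and 30.1 times between their highest and lowest tissue, whereas each other gene spans less than 5 times.

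The remaining genes were spread more evenly. Hspa8, the constitutive Hsp70, had the highest level per kilobase of the 10 in small intestine, liver, spleen and kidney, with means of 294, 689, 287 and 728 CPM, and came after Cryab in heart at 746 ± 198 CPM (SD, n = 2). Hspa1a was the lowest of the 10 in all 5 tissues, between 0.0932 and 1.44 CPM per kilobase in single WT libraries, scaled over all its exon bases. Reads that also fit Hspa1b may be missing from that value. Hspd1 stood at 267 and 292 CPM per kilobase in liver, 257 and 236 in heart, 147 and 309 in kidney, 109 and 67.5 in small intestine and 58.1 and 75.6 in spleen. Its liver was separate from the tissue ranked next, heart, and heart overlapped kidney.

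A test of any difference between the 5 WT tissues passed (adjusted p under 0.1, edgeR quasi-likelihood F test with Benjamini-Hochberg adjustment over all genes) for 5 of the 9 genes other than Hspb1, against 72.3% of the 21742 genes tested. They were Hspb8 (adjusted p = 1.09e-05), Cryab (3.53e-05), Hspd1 (0.0120), Hsph1 (0.0473) and Hspa8 (0.0654). It did not pass for Hsp90aa1 (0.213), Dnajb1 (0.197), Hspa1b (0.291) and Hspa1a (0.304). Hspb1 is left out of these counts because its liver values, in WT and in KO, chose the genes. The 5 became 3 without liver WT replicate 1 or without either WT heart library, and at most 6 with another library left out. In the same test over the KO libraries all 9 passed, against 83.4% of 21682 genes.

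For heart against the mean of the other tissues, 2 of the same 9 genes were called, both higher. A call needed over 2-fold and an adjusted p under 0.1, and over all genes 20.3% were called higher and 14.5% lower. The 2 genes were Cryab (log2 difference 7.17 ± 0.416, adjusted p = 5.70e-06) and Hspb8 (5.59 ± 0.249, 1.35e-06). Hspa1b was also called lower with DESeq2, with no filter on low counts and without spleen WT replicate 1. In small intestine 3 genes were called lower, Cryab, Hspb8 and Hspd1, against 14.2% of all genes, and the Hspd1 call (-1.05 ± 0.388, adjusted p = 0.0695) was lost in 8 of 10 fits with a library left out, where the difference lay between -1.43 and -0.69. Without small intestine WT replicate 1, Dnajb1 was called higher there. In spleen 4 were called lower, Hspb8, Cryab, Hspd1 and Hspa8, against 16.1% of all genes, and 0 higher, against 21.2%. The Hspa8 call (-1.04 ± 0.433, adjusted p = 0.0961) was lost in 7 of 10 such fits, between -1.14 and -0.92, that of Cryab without either spleen library and that of Hspd1 without spleen WT replicate 1, with between 1 and 4 genes called lower. In kidney Cryab was called higher (17.2% of all genes), and Hspb8 lower (8.28%). Without kidney WT replicate 2 no gene was called higher there, without WT replicate 1 there were 3 (with Hspa8 and Hspd1), and without liver or spleen WT replicate 2 there were 2 (with Hspa1a). In liver Hspb8 and Hspd1 were called higher (14.6% of all genes) and Cryab lower (14.3%), and the Hspd1 call (1.06 ± 0.336, adjusted p = 0.0472) was lost in 4 of 10 fits, between 0.95 and 1.24, with between 1 and 4 genes called higher. For Hspb1 the same differences, given with no test since their mean holds the liver, were 3.84 ± 0.296 in heart, 1.18 ± 0.320 in spleen and -2.14 ± 0.405 in small intestine.

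In the liver, the tissue whose comparison chose the genes, Hspb1 was at 3.71 and 4.67 CPM in WT and at 19.6 and 33.8 CPM in KO. Both KO libraries were above both WT libraries, and the log2 fold change was 2.67 ± 0.315 (SE), a 6.36-fold difference. Its relatives of the small heat shock family did not show this. Hspb8 was at 256 and 223 CPM in WT and 235 and 274 CPM in KO, and Cryab at 3.99 and 3.82 CPM in WT and 3.83 and 4.64 CPM in KO. Both overlapped between genotypes, with log2 fold changes of 0.08 ± 0.195 and 0.11 ± 0.342.

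The next largest difference in liver with KO above WT belonged to Hsp90aa1, at 914 and 610 CPM in WT and 1455 and 1404 CPM in KO. The genotypes did not overlap, with a log2 fold change of 0.91 ± 0.265. The J-domain protein Dnajb1 was at 43.2 and 54.6 CPM in WT and 66.0 and 73.2 CPM in KO (0.50 ± 0.195), and the Hsp70 that it serves, Hspa8, at 3375 and 2551 against 4297 and 3654 CPM (0.43 ± 0.286). Hspd1 was at 706 and 771 CPM in WT and 782 and 843 CPM in KO (0.13 ± 0.218). These too did not overlap between genotypes. Hsph1 did, at 201 and 137 CPM in WT and 221 and 180 CPM in KO.

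Of the stress-induced Hsp70 genes, Hspa1b lay the other way in liver. It was at 9.64 and 10.98 CPM in WT and 5.68 and 2.83 CPM in KO, lower in both KO libraries, with a log2 fold change of -1.28 ± 0.383 that came to -1.89 when KO replicate 1 was left out and to -0.85 when KO replicate 2 was. Hspa1a, which may share its reads, was at 0.276 and 1.38 CPM in WT and 0.631 and 0.405 CPM in KO and overlapped, with a log2 fold change of -0.66 ± 0.887 that was 0.90 ± 1.21 without WT replicate 2. The library with the most Hspb1, KO replicate 2, was also the one with the least Hspa1b. In all, 5 of the 10 genes lay wholly above WT in KO liver and 1 wholly below, and over the 15729 genes tested in liver these shares were 17.2% and 16.1%. The 5 include Hspb1, whose liver values chose the genes, beside Hspa8, Dnajb1, Hsp90aa1 and Hspd1.

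**Figure D2:**
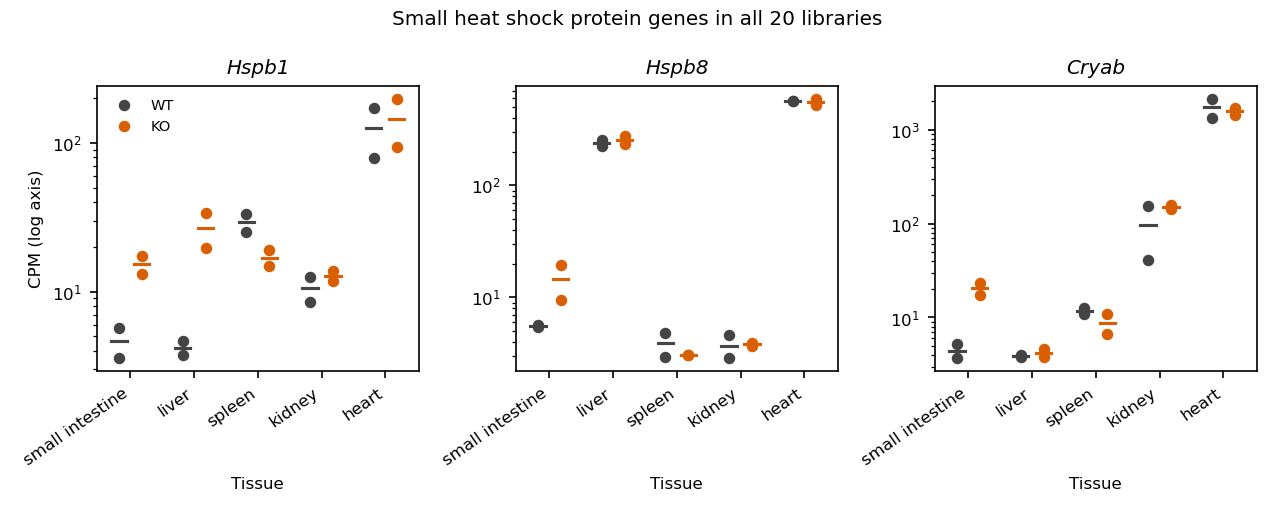
CPM (log axis) of Hspb1, Hspb8 and Cryab in all 20 libraries, with WT in grey, KO in orange, 2 points per group and a bar at the group mean. KO lies above WT for Hspb1 in liver and for all 3 genes in small intestine, below WT for Hspb1 in spleen, and the points of heart overlap.

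In the small intestine all 3 small heat shock proteins were higher in KO. Hspb1 was at 3.54 and 5.71 CPM in WT and 17.4 and 13.1 CPM in KO, and Hspb8 at 5.43 and 5.71 CPM in WT and 19.5 and 9.52 CPM in KO. Cryab was at 3.66 and 5.24 CPM in WT and 23.4 and 17.4 CPM in KO. Each KO library was above each WT library for all 3 genes. The log2 fold changes were 1.68 ± 0.452 for Hspb1 (unadjusted p = 0.0170), 1.33 ± 0.493 for Hspb8 (0.0478) and 2.16 ± 0.410 for Cryab (0.00461), and none passed after adjustment over all genes (edgeR quasi-likelihood test, adjusted p = 0.9999 for each). DESeq2, run as an alternative, called Cryab alone (2.15 ± 0.514, adjusted p = 0.0292), beside 0.266% of all genes called higher by that tool. Without KO replicate 1 the log2 fold change of Hspb8 was 0.76.

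Hspa1a and Hspa1b were also wholly above WT in KO small intestine. Hspa1a was at 0.726 and 1.71 CPM in WT and 2.17 and 3.51 CPM in KO, and Hspa1b at 3.98 and 6.39 CPM in WT and 10.4 and 7.46 CPM in KO. Their unadjusted p values were 0.162 and 0.192. Hspa8, Dnajb1, Hsph1, Hsp90aa1 and Hspd1 overlapped between genotypes. Thus 5 of the 10 genes did not overlap, beside 25.1% of the 17680 genes tested, and all 5 were higher in KO, beside 15.1%. With edgeR 0 of the 10 were called, as were 0% of all genes, and 3 of the 10 had an unadjusted p under 0.05 beside 2.39% of all genes.

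Smooth muscle markers were higher in the same KO libraries of the small intestine. All 10 markers of that list were wholly higher in KO, all 10 with an unadjusted p under 0.05, and 0 of them were called by edgeR and 5 by DESeq2 (Myh11, Actg2, Des, Synpo2 and Lmod1). Their summed level was 552 and 827 CPM in WT and 3458 and 2118 CPM in KO, none was at 0, and the most counts fell on Mylk in WT and on Des or Mylk in KO. Cardiomyocyte markers, which include genes shared with other muscle, summed to 10.2 and 19.2 CPM in WT and 268 and 29.6 CPM in KO, with Actc1 at the top in KO replicate 1 and Tnnt2 in the others, and with Nppa at 0 in both WT libraries and Mybpc3 at 0 in WT replicate 2. Of the 6 that could be fitted edgeR called 0, with 3 at an unadjusted p under 0.05, and DESeq2 called Myh6 and Actc1. All 8 stellate cell and fibroblast markers had a log2 fold change above 0, 6 of them wholly higher in KO and 3 with an unadjusted p under 0.05, with 0 called by edgeR and Des by DESeq2, and summed to 350 and 326 CPM in WT and 1167 and 626 CPM in KO, none at 0 and with Des, which is also on the smooth muscle list, at the top in KO. Skeletal muscle markers went both ways: of the 5 that could be fitted, 3 had a log2 fold change above 0 and 2 below. In this list 2 were wholly higher in KO and 1 wholly lower, with 0 called by edgeR and 1, Ckm, called higher by DESeq2. Other lists had values below 0: all 6 B cell, all 6 T cell and all 6 proliferation markers had a log2 fold change below 0, with medians of -2.86, -0.88 and -1.13, of which 0, 2 and 0 were wholly lower, with 0 called by either tool and 0 at an unadjusted p under 0.05. B cell markers summed to 352 CPM in WT replicate 1, with Ms4a1 at the top, against 8.81 CPM in WT replicate 2 and 1.49 and 57.9 CPM in KO, with Cd79b at the top, and were at 0 for Fcer2a in WT replicate 2 and for Cd79a, Cr2 and Fcer2a in KO replicate 1. T cell markers summed to 113 and 183 CPM in WT and 15.8 and 138 CPM in KO, and proliferation markers to 447 and 102 CPM in WT and 163 and 101 CPM in KO, with Cd8a and Mki67 at the top and none at 0. WT replicate 1 was also the library outside the spleen with the highest sum of the 4 spleen markers, at 219.5 CPM. The part of any of these cells in the small heat shock values was not tested. In the liver the smooth muscle markers summed to 108 and 110 CPM in WT and 118 and 120 CPM in KO, and the cardiomyocyte markers to 17.9 and 3.66 CPM in WT and 1.12 and 1.18 CPM in KO, where all 4 that could be fitted were wholly lower and their part in the liver values was not tested.

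Some chaperones outside the 10, named after their values were seen, lay the same way in the small intestine. Hspb6, known from smooth and heart muscle, was at 4.10 and 6.78 CPM in WT and 32.3 and 16.2 CPM in KO (log2 fold change 2.11 ± 0.527, unadjusted p = 0.0130, adjusted p = 0.9999 by edgeR). Serpinh1, the collagen chaperone, was at 24 and 21.1 CPM in WT and 48.4 and 51.6 CPM in KO (1.11 ± 0.266, unadjusted p = 0.0112). Bag2, a cochaperone of Hsp70, was at 1.13 and 1.07 CPM in WT and 5.69 and 3.34 CPM in KO (1.99 ± 0.567, unadjusted p = 0.0209). None of the 3 passed after adjustment. In the list of 15 chaperones of the endoplasmic reticulum, which holds Serpinh1, 13 had a log2 fold change below 0 and 2 above. In the list of 19 cochaperones of Hsp90 and Hsp70, which holds Bag2, 12 were below 0 and 7 above, up to 2.71. Among 8 subunits of the chaperonin TRiC 7 were below 0 and 1 above.

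**Figure D3:**
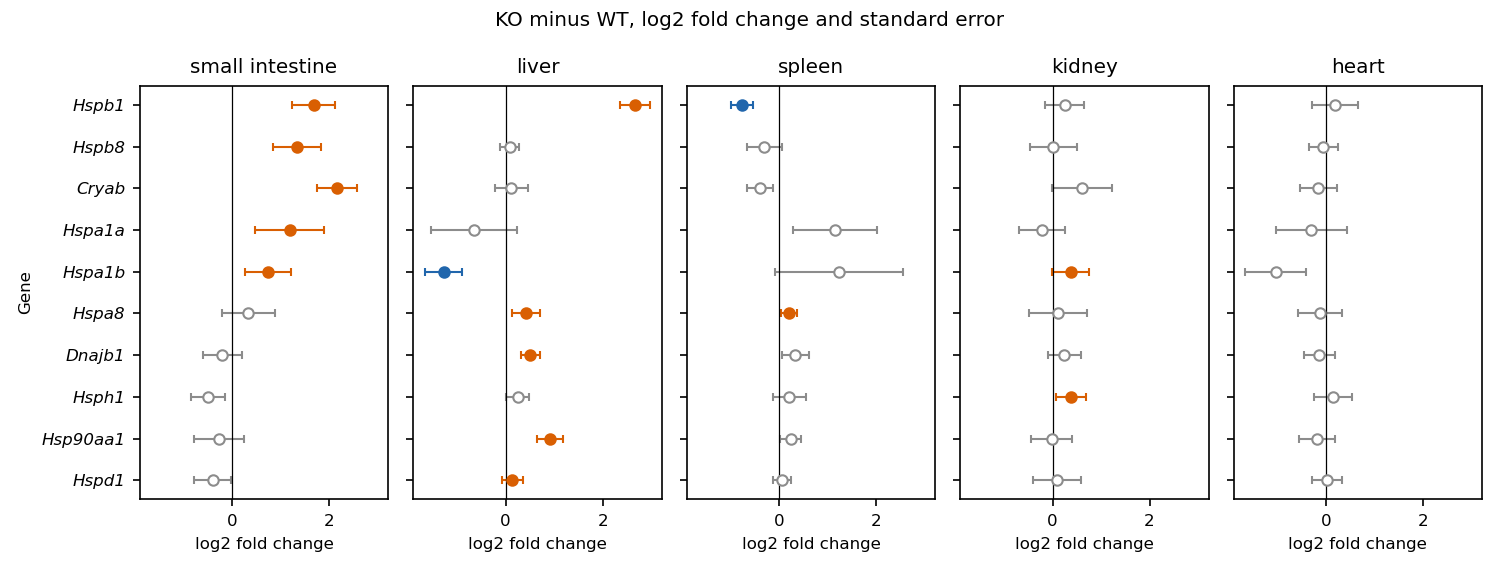
Log2 fold change of KO over WT (horizontal axis) with its standard error (bar) for the 10 genes in each tissue. Orange marks genes whose KO libraries both lie above both WT libraries, and blue those whose KO libraries both lie below. Open grey circles mark those that overlap. Liver and small intestine hold 5 orange genes each, with Hspb1, whose liver values chose the genes, among those in liver. Heart holds none of either colour.

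In the spleen Hspb1 lay the other way. It was at 25.3 and 33.3 CPM in WT and 18.9 and 14.8 CPM in KO, lower in both KO libraries, with a log2 fold change of -0.77 ± 0.219 (unadjusted p = 0.00951, adjusted p = 0.468, edgeR quasi-likelihood test). Without WT replicate 2 the value was -0.52 ± 0.295. That library carried the hepatocyte markers given above, and their part in the spleen value was not tested.

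Hspa8 was the only gene of the 10 wholly higher in KO spleen, at 1135 and 1332 CPM in WT and 1415 and 1351 CPM in KO (0.20 ± 0.165, unadjusted p = 0.265). Thus 1 gene was wholly higher and 1 wholly lower, beside 14.7% and 16.9% of the 18834 genes tested, and 0 of the 10 were called by edgeR or DESeq2, where edgeR called 0.223% of all genes. Hspb1 alone had an unadjusted p under 0.05, beside 5.14% of all genes.

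Hspa1a and Hspa1b had their lowest value in WT replicate 1 of the spleen. Hspa1a was at 0.670 and 3.47 CPM in WT and 3.16 and 5.79 CPM in KO, and Hspa1b at 1.34 and 9.84 CPM in WT and 7.78 and 17.9 CPM in KO. The genotypes overlapped, and the log2 fold changes were 1.14 ± 0.866 and 1.23 ± 1.32. Without WT replicate 2, that is against WT replicate 1 alone, assumed to vary like the KO libraries, both were called higher in KO (2.81 ± 0.593 and 3.34 ± 0.617, adjusted p = 0.0428 and 0.0606 by edgeR), beside 1.32% of the genes of that fit called higher. Without WT replicate 1 the log2 fold changes were 0.38 and 0.40 and neither was called. Of the 10 genes, 8 had their lowest spleen value in WT replicate 1, as had 18.9% of all genes tested there.

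Erythroid and proliferation markers moved with genotype in the spleen as well. All 9 erythroid markers were wholly higher in KO, with 6 called by edgeR and 8 by DESeq2. They summed to 9665 and 13160 CPM in WT and 22310 and 24660 CPM in KO, with Hbb-bs at the top and none at 0. All 6 proliferation markers were wholly higher, with 1, Mki67, called by edgeR and 3, Mki67, Ccnb1 and Cdk1, by DESeq2. Their sums were 517 and 662 CPM in WT and 1385 and 1347 CPM in KO. All 5 adipocyte markers were wholly higher, 2 with an unadjusted p under 0.05, with 0 called by edgeR and Lep and Cfd by DESeq2, and summed to 21.05 and 5.85 CPM in WT and 44.6 and 38.7 CPM in KO, with Cfd at the top and none at 0. Of 10 smooth muscle markers 9 had a log2 fold change below 0 and 4 were wholly lower in KO, with 0 called by either tool and 0 at an unadjusted p under 0.05, a median of -0.25, and sums of 306 and 309 CPM in WT and 285 and 203 CPM in KO, Acta2 at the top and none at 0. The part of these markers in the lower Hspb1 was not tested.

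In the kidney the genes followed 1 library more than the genotype. Cryab was at 41.0 and 153 CPM in WT and 141 and 156 CPM in KO. WT replicate 1 was far below the rest, and the log2 fold change of 0.60 ± 0.618 (adjusted p = 0.9999 by edgeR) became -0.04 ± 0.180 without it. Against WT replicate 1 alone, without WT replicate 2 and with the spread taken from the KO libraries, Cryab was called higher in KO (1.83 ± 0.207, adjusted p = 0.00588 by edgeR), beside 1.37% of the genes of that fit called higher. Hspa8 was at 2079 and 4186 CPM in WT and 4039 and 2820 CPM in KO, and Hspd1 at 389 and 817 against 602 and 697 CPM, each with its lowest value again in WT replicate 1.

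Hspb1 was at 8.55 and 12.5 CPM in WT and 13.7 and 11.7 CPM in KO kidney and overlapped (0.25 ± 0.402). Hsph1, at 133 and 161 CPM in WT and 202 and 188 CPM in KO, and Hspa1b, at 8.64 and 7.74 CPM in WT and 10.5 and 11.1 CPM in KO, were wholly higher in KO, with unadjusted p values of 0.266 and 0.376. These were 2 of 10 wholly higher, beside 11.7% of 17550 genes tested, and 0 wholly lower, beside 9.30%. Neither edgeR nor DESeq2 called any of the 10, none had an unadjusted p under 0.05 beside 0.638% of all genes, and edgeR called 0% of all genes.

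In the heart no gene of the 10 separated the genotypes. Hspb1 was at 172 and 79.6 CPM in WT and 198 and 93.3 CPM in KO. The values split by replicate number and not by genotype, with replicate 1 higher in both (0.19 ± 0.476). Cryab was at 2117 and 1324 CPM in WT and 1686 and 1434 CPM in KO, and Hspb8 at 571 and 567 against 590 and 519 CPM. Hspa1b had the largest log2 fold change in heart, -1.04 ± 0.630 (unadjusted p = 0.143), at 1.37 and 3.60 CPM in WT and 1.05 and 1.398 CPM in KO. Without WT replicate 2 it was -0.16. The counts were 0 wholly higher and 0 wholly lower, beside 8.59% and 8.65% of 16632 genes, with 0 of the 10 called by edgeR or DESeq2, 0 at an unadjusted p under 0.05 (0.703% of all genes) and 0% of all genes called by edgeR.

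Over the 16 libraries of the 4 tissues other than the liver, with a level for each tissue, no gene of the 10 was called by edgeR or DESeq2 (0 with an unadjusted p under 0.05 beside 1.78% of all genes, and 0% of 22649 genes called by edgeR). The log2 fold change was 0.53 ± 0.353 for Cryab, 0.32 ± 0.304 for Hspb1 and 0.25 ± 0.234 for Hspb8, with an adjusted p of 0.9998 for each. Without the small intestine Hspb1 came to -0.11 ± 0.255 and Hspb8 to -0.11 ± 0.158. The chaperones outside the small heat shock family lay between -0.06 for Hsp90aa1 and 0.47 for Hspa1a. This fit treated the 16 libraries as independent, although whether tissues share animals is not stated.

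Whether KO acted on a gene to a different degree in these 4 tissues was tested by an interaction of genotype and tissue. Its unadjusted p was 0.0125 for Hspb1, 0.0164 for Cryab and 0.0275 for Hspb8, between 0.259 and 0.912 for the other 7, and no gene of the 10 passed after adjustment over all genes (edgeR, adjusted p = 1 for each). For Hspb1 the effect in small intestine exceeded that in spleen by 2.48 ± 0.611 on the log2 scale (unadjusted p = 0.00159, adjusted p = 0.819).

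Per library, the deviation from the mean of the tissue was set beside that of all genes tested in the tissue. Kidney WT replicate 1 was below the tissue mean for all 10 genes and lowest for 9, beside 51.9% and 34.8% of all genes. Heart KO replicate 2 was below the mean for all 10 and lowest for 7, beside 46.5% and 27% of all genes, and heart KO replicate 1 was the highest heart library for 8 of the 10, beside 28%. Spleen WT replicate 2 was above the mean for all 10, beside 47.3% of all genes. In the liver 7 of the 10 genes were above the mean in KO replicate 1 and 7 in KO replicate 2, beside 49% and 56.6% of all genes, and 7 and 8 were below it in WT, beside 47.4% and 51.5%. Each of these liver counts includes Hspb1, whose liver values chose the genes.

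**Figure D4:**
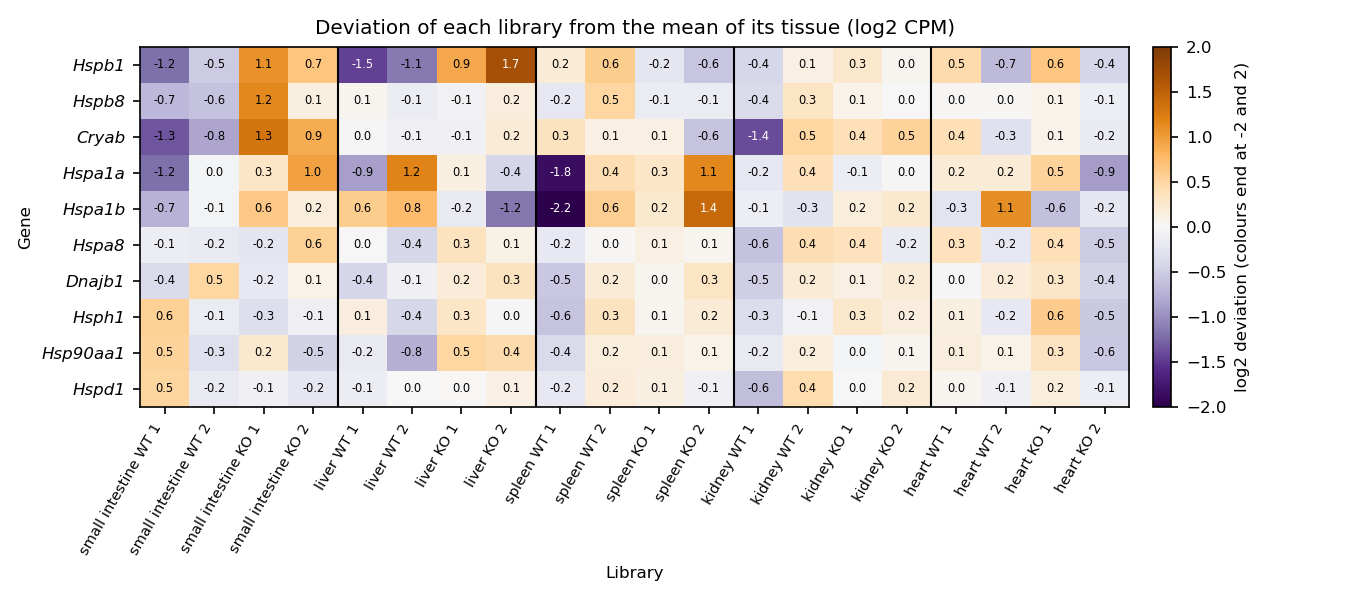
Deviation of log2 CPM of each of the 20 libraries (columns, grouped by tissue) from the mean of its tissue for the 10 genes (rows), with orange above and purple below the mean. Hspb1 in liver runs from -1.47 and -1.14 in WT to 0.92 and 1.70 in KO, and kidney WT replicate 1 is purple for all 10 genes.

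Over the 16 libraries outside the liver, the Pearson r of deviations from the tissue mean was 0.84 between Hspb1 and Cryab and 0.80 between Hspb1 and Hspb8, higher than for 99.9% and 99.8% of 22648 genes. Their Spearman values were 0.75 and 0.77, higher than for 99.5% and 99.7%. Hspa8 followed at 0.46 (91.8% of genes lower) and Hspa1a at 0.34 (84.1%). With 1 library left out Hspa1a lay between 0.09 and 0.59, and without the spleen libraries it was 0.75, above 98.8% of genes. Dnajb1 at 0.14, Hsph1 and Hsp90aa1 at -0.01 each, and Hspa1b and Hspd1 at -0.05 each lay in the bulk of all genes, whose median was -0.02. These values are a description, since the 16 libraries are not independent of each other: they share 1 scaling, and those of a tissue share the mean that was removed. The point farthest from the rest was the small intestine. Without its 4 libraries r was 0.62 for Hspa8, 0.61 for Cryab and 0.59 for Hspb8, above 93.7%, 93.0% and 92.2% of genes. Hsph1, Hspd1 and Hsp90aa1 were then at 0.54, 0.48 and 0.37, above 89.9%, 86.8% and 81.1% of genes. Dnajb1, Hspa1a and Hspa1b came to 0.22, -0.01 and -0.45. Without the heart libraries r was 0.89 for Cryab, 0.88 for Hspb8 and 0.30 for Hspa8, the last above 79.0% of genes. Hsph1, Hsp90aa1 and Hspd1 were then at -0.38, -0.25 and -0.16. Without the 2 libraries whose Hspb1 was farthest from the median, WT and KO replicate 1 of the small intestine, r was 0.71 for Cryab, 0.69 for Hspa8 and 0.64 for Hspb8. With the mean of each genotype within a tissue removed as well, r was 0.62 for Cryab, 0.60 for Hspa8, 0.53 for Dnajb1 and 0.49 for Hspb8, above 92.8%, 92.1%, 89.7% and 87.9% of genes, so Hspb8 was below Hspa8 and Dnajb1 on that measure.

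**Figure D5:**
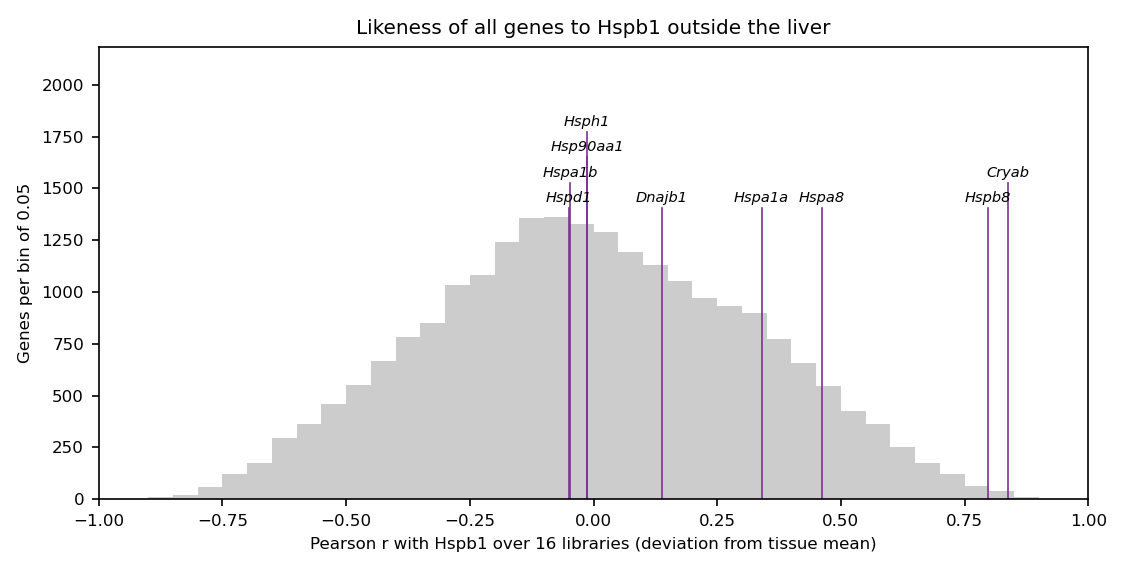
Histogram of Pearson r with Hspb1 for 22648 genes over 16 libraries outside the liver (horizontal axis: r; vertical axis: genes per bin of 0.05), with a line for each of the other 9 genes. Cryab and Hspb8 lie at the right edge, at 0.84 and 0.80, and 5 of the 9 lie below 0.2.

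The 5 genes most like Hspb1 among those with at least 10 CPM on average were Rras, a small GTPase (r = 0.93), Fhl2, a LIM-domain protein of heart muscle (0.89), Map1lc3a, an autophagosome protein (0.89), Tmem35a (0.88) and Manba, a lysosomal mannosidase (0.88). The smooth muscle markers had a median r of 0.50 with Hspb1, and 5 of the 10 exceeded 0.5, as did 1453 of all 22648 genes. The cardiomyocyte markers had a median r of 0.57, and 5 of the 8 exceeded 0.5. Without the small intestine these medians were -0.11 and 0.04, against -0.07 for all genes. T cell and B cell markers had medians of -0.51 and -0.52.

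Hspb8 and Cryab had an r of 0.80 with each other. Among the chaperones outside the small heat shock family the highest r was 0.76, between Hspa1a and Hspa1b. It was followed by 0.73 between Hspa1a and Dnajb1 and by 0.64 to 0.72 among Hsph1, Hsp90aa1 and Hspd1. Hspa8 had an r of 0.52 with Hspa1a, 0.55 with Dnajb1, 0.53 with Hsph1 and 0.43 with Hspd1. Dnajb1 had 0.53 with Hspa1b and 0.48 with Hsph1. The part of the shared sequence in the r of Hspa1a with Hspa1b was not tested.

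Beyond the 10 genes, the rest of the chaperone network was counted from lists by role. In liver, where no test applies, the chaperones of the endoplasmic reticulum had 9 of 15 genes wholly higher in KO and 0 wholly lower, beside the 17.2% and 16.1% of all genes given above, with a median log2 fold change of 0.39 against 0.0048 for all genes. Sdf2l1 was at 47.3 and 30.7 CPM in WT and 74.4 and 80.6 CPM in KO (0.99 ± 0.227), and Hsp90b1, the Hsp90 of that compartment, at 1049 and 1324 against 1964 and 1568 CPM (0.57 ± 0.267). Of 19 cochaperones of Hsp90 and Hsp70, 9 were wholly higher and 2 wholly lower (median 0.19). The highest were Stip1, which links the machines, at 87.5 and 108 CPM in WT and 160 and 200 CPM in KO (0.87 ± 0.205), and Fkbp4, at 257 and 200 against 340 and 468 CPM (0.82 ± 0.231). Bag3, the partner of Hspb8, was lower, at 26.2 and 34.1 CPM in WT and 22.3 and 20.8 CPM in KO (-0.49 ± 0.217).

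Among 8 subunits of the cytosolic chaperonin TRiC, 4 were wholly higher in KO liver (median 0.24), with Cct3 at 104 and 116 CPM in WT and 154 and 179 CPM in KO. Of 10 other mitochondrial chaperones 1 was wholly higher, Grpel1, and 1 wholly lower, Hspa9. The 9 other J-domain proteins of the cytosol had 1 wholly higher and 3 wholly lower (median -0.07). The 8 other Hsp70 and Hsp110 proteins of the cytosol had 3 wholly higher and 0 wholly lower (median 0.13). The 20 other genes known to be induced by heat shock, which overlap the lists above, had 9 wholly higher and 2 wholly lower, with a median of 0.30. Heat shock factor 1 itself (Hsf1) was at 24.6 and 24.6 CPM in WT and 22.5 and 26.5 CPM in KO, and none of the 6 genes for heat shock factors and their brakes separated the genotypes. Some genes of other lists separated the genotypes in liver as well. Of 14 circadian clock genes fitted, 3 were wholly higher and 7 wholly lower, beside 17.2% and 16.1% of all genes (-1.307 to 1.245). Of 9 glucocorticoid-responsive genes 0 were wholly higher and 1 wholly lower (-3.054 to 0.891), and of 13 immediate early genes 1 and 3. Both cold-inducible genes were below 0, with 1 wholly lower. The part of these genes in the chaperone values was not tested.

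In the tested tissues no gene of the chaperone lists was called by edgeR in any tissue or over the 4 tissues together, and DESeq2 called 1, Dnaja4 in spleen, where it called 1.09% of all genes higher. Of the genes in the role lists, the list of heat shock induced genes aside, 4 of 77 in small intestine (5.19%, beside 2.39% of all genes), 5 of 76 in spleen (6.58%, beside 5.14%) and 0 in kidney and heart had an unadjusted p under 0.05. The median log2 fold changes of the endoplasmic reticulum list were -0.24 in small intestine, 0.12 in spleen, 0.23 in kidney and -0.01 in heart, and those of the other heat shock induced genes were -0.05, 0.10, 0.06 and 0.01. All genes had medians of 0.0037, 0.0072, -0.026 and -0.0090. The 15 genes of the endoplasmic reticulum list had 7 wholly higher and 0 wholly lower in spleen, beside 14.7% and 16.9% of all genes. Kidney had 5 and 0, beside 11.7% and 9.30%, and heart 0 and 0, beside 8.59% and 8.65%. Small intestine had 1 wholly higher and 4 wholly lower, where 25.1% of all genes did not overlap in either direction. In spleen 3 of 9 other J-domain proteins had an unadjusted p under 0.05, all higher in KO, beside 5.14% of all genes. They are named after their values were seen. Dnajb2 was at 24.2 and 28.3 CPM in WT and 54.9 and 41.6 CPM in KO (0.91 ± 0.194, adjusted p = 0.219 by edgeR), Dnaja4 at 4.18 and 4.88 against 9.09 and 9.70 CPM, and Dnajb4 at 35.6 and 45.5 against 56.5 and 66.2 CPM.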

How the data were processed

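RNA-seq counts of 20 libraries (5 tissues, 2 genotypes, 2 libraries per group) were analysed from 1 deposited table. The authors made its whole-number counts per gene with cutadapt, HISAT2 2.1.0 (mm10) and featureCounts 2.0.1 over the exons of the Ensembl GRCm38 annotation; the stored featureCounts command holds no strand option although the methods state one, so reads of genes that overlap, such as Hspd1 and Hspe1, may not be separated. The exon length per gene was deposited in bases and used only to scale levels per kilobase. The 107 symbols that occur more than once were kept apart by gene identifier.

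The counts were tested with edgeR 4.0.16 in R 4.3.3 (TMM scaling, filterByExpr, robust quasi-likelihood test, Benjamini-Hochberg adjustment over all genes of the fit). Fits were made per tissue, over the 16 libraries outside the liver with tissue as a term, and over the 10 WT libraries. Whether tissues share animals is not stated, so libraries were treated as independent in every fit across tissues. If they do share animals, the p values and errors of those fits do not measure the spread between mice. A call needed an adjusted p under 0.1 and over 2-fold; the F test over tissues needed the adjusted p alone. No test of KO against WT was reported for liver, nor of Hspb1 between tissues where the liver enters, since that comparison chose the genes. Errors of log2 fold changes from edgeR are standard errors derived from the test, as the absolute log2 fold change over the square root of the quasi-likelihood F. Those of the liver were derived in the same way. Errors from DESeq2 are the standard errors of that tool, so the 2 kinds are not the same measure. Likeness to Hspb1 was Pearson r of log2 CPM (prior count 2) after removal of the tissue mean.

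The members and all lists of other chaperones and cell type markers were chosen with earlier results of these data known. Named were the 10 genes, Nsun6, the leading or called genes of each list, and the 5 genes with the highest r; names outside this rule are marked. Totals of 15897446 to 44508197 counts bound the precision of genes at a few CPM. Promoters came from RefSeq (GRCm38.p6), where Cryab, Hsp90aa1 and Hspa8 had no entry used here. The alternatives were DESeq2 1.42.0, 2 other scalings, 2 other filters, other thresholds, a replicate block, 1 fit of 20 libraries, each library left out, each tissue left out, Spearman and the KO libraries in place of WT; leaving out tissues or the 2 most distant libraries for r was added after seeing the data. The scripts were tested on simulated data.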

Additional observations from a re-analysis of the deposited data

Results flagged for a closer look

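Hspb1 and Hspa1b differed in direction between tissues, with both KO libraries above both WT libraries in one tissue and below them in another. For Hspb1 the log2 fold change in small intestine exceeded that in spleen by 2.445 from the fits within each tissue, and the test of this difference in 1 fit did not pass (edgeR, adjusted p = 0.819). The log2 fold change of Hspb1 in liver exceeded that in spleen by 3.436, and this difference was not tested. For Hspa1b the log2 fold change in small intestine exceeded that in liver by 2.02 and that in kidney exceeded that in liver by 1.651, and neither was tested. The liver values chose the genes.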

How the results depend on the processing

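With 2 libraries per group, 1 library can set a value, and few genes of the table reached a call. DESeq2 called 1 of the 10 genes in small intestine, Cryab. The lowest and highest counts with a library left out were 0 and 2 in spleen, where the calls were Hspa1a and Hspa1b without WT replicate 2, and 0 and 1 in kidney, where Cryab was called without WT replicate 2. The KO libraries gave 9 genes other than Hspb1 that differ between tissues in place of 5, and with a library left out there were 3 to 6. Against the mean of the other WT tissues, the call of Hspd1 in small intestine fell under 2-fold with DESeq2 (-0.96, adjusted p = 0.0278), median-of-ratios scaling (-0.96), the minimum of 10 counts (-0.995) and no filter (-0.99, adjusted p = 0.116). That of Hspa8 in spleen fell under it with the minimum of 10 counts (-0.97) and upper-quartile scaling (-0.88, adjusted p = 0.170), and was lost by its adjusted p with no filter (0.114) and the replicate block (0.125). That of Hspd1 in liver was lost with upper-quartile scaling (0.91, adjusted p = 0.102). In kidney 2 genes were called higher with no filter and with the replicate block. Over all genes, the 42 calls in spleen became 219 with DESeq2, 313 without a filter, 105 with the minimum of 10 counts, 0 in 1 fit of 20 libraries, 0 at an adjusted p under 0.05 and 0 to 371 with a library left out. The 0 calls elsewhere became 61 in small intestine with DESeq2, up to 2938 in kidney (444 without WT replicate 2, 2938 without WT replicate 1), 2 in heart with DESeq2, 13 without a filter and up to 22 with a library left out, and over the 4 tissues 2 with DESeq2, 1 without a filter and up to 2 with a library left out.

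The replicate numbers are not stated to pair the samples. The correlation of the replicate differences of WT and KO was 0.607 in small intestine, 0.0595 in liver, 0.0257 in spleen, 0.229 in kidney and 0.448 in heart. With the replicate block 0 of the 10 genes were called in each tested tissue and over the 4 tissues, the median of the 10 in liver was 0.20, 6 genes other than Hspb1 differed between WT tissues, and the calls over all genes in heart came to 6.

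Signs turned as follows, with the cause not tested. Hspb8 in kidney was -0.0053 with upper-quartile scaling, and Hsp90aa1 in kidney was 0.0076 in 1 fit of 20 libraries. Over the 4 tissues, leaving out small intestine gave -0.11 for Hspb1, -0.11 for Hspb8, 0.0069 for Hsp90aa1 and 0.055 for Hspd1, leaving out spleen gave -0.0072 for Dnajb1, and leaving out kidney gave -0.026 for Dnajb1 and -0.069 for Hsph1. In the KO libraries Hspb1 was 0.028 in liver and -0.81 in spleen against the mean of the other tissues, with no test since the liver enters both.

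Log2 fold changes that changed sign with a library left out had these lowest and highest values. In liver they were -0.015 to 0.17 for Hspb8, -0.012 to 0.22 for Cryab and -1.44 to 0.90 for Hspa1a. In small intestine they were -0.19 to 0.70 for Hspa8, -0.58 to 0.29 for Dnajb1 and -0.65 to 0.19 for Hsp90aa1. In spleen they were -0.65 to 0.13 for Hspb8, -0.016 to 0.80 for Dnajb1, -0.20 to 0.79 for Hsph1, -0.035 to 0.57 for Hsp90aa1 and -0.15 to 0.29 for Hspd1. In kidney they were -0.27 to 0.40 for Hspb8, -0.043 to 1.83 for Cryab, -0.47 to 0.12 for Hspa1a, -0.29 to 0.70 for Hspa8, -0.050 to 0.62 for Dnajb1, -0.16 to 0.16 for Hsp90aa1 and -0.34 to 0.72 for Hspd1. In heart they were -0.43 to 0.88 for Hspb1, -0.13 to 0.033 for Hspb8, -0.46 to 0.24 for Cryab, -1.18 to 0.32 for Hspa1a, -0.62 to 0.27 for Hspa8, -0.52 to 0.19 for Dnajb1, -0.51 to 0.60 for Hsph1, -0.67 to 0.18 for Hsp90aa1 and -0.10 to 0.16 for Hspd1. Over the 4 tissues they were -0.048 to 0.17 for Dnajb1, -0.054 to 0.18 for Hsph1, -0.16 to 0.047 for Hsp90aa1 and -0.17 to 0.049 for Hspd1.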
